A study of Mus musculus with 28 samples.

Results

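Trp53 encodes p53, the transcription factor that is stabilised when DNA is damaged, and 9 of the genes it directly switches on were followed with it in mice that carry human APOBEC3B. The 10 genes were Trp53, Cdkn1a, Mdm2, Ccng1, Phlda3, Eda2r, Gdf15, Sesn1, Zmat3 and Trp53inp1. They were chosen by name, as established members of the pathway, out of 35858 genes quantified in liver and pancreas and 24845 genes quantified in another set of livers and lungs. The question was whether expression of a DNA cytosine deaminase, which can leave uracil in DNA, is accompanied by p53 target gene expression in these organs.

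APOBEC3B (A3B) is an enzyme that deaminates cytosine in single-stranded DNA, and a member of a gene family that has expanded in primates. In the A3B mice the human coding sequence, joined to turboGFP, sits behind a tetracycline-responsive promoter at the ColA1 locus of KH2 embryonic stem cells, and a CAGs-rtTA3 transactivator expressed throughout the body switches it on when the animal eats doxycycline. Every A3B mouse therefore carries the same targeted insertion, and all groups, the controls included, were given doxycycline according to the labels and the study's methods, although a figure legend of the study describes both control animals of the liver and pancreas data as without doxycycline. Whether controls 45 and 168 received it is therefore not settled, and any effect of the drug in set 2 cannot be told apart from that of A3B. Most controls are labelled A3B alone, the transgene without the transactivator, and most A3B samples A3B + CAGS-rtTA. Set 2 held 6 A3B livers, 2 control livers, 6 A3B pancreases and 2 control pancreases, all labelled day 10. Set 1 held 3 A3B livers, labelled day 14, 14 and 10, 3 A3B lungs, labelled day 10, and 3 control livers and 3 control lungs, labelled day 15. Doxycycline was begun in young adult mice, a few weeks of age. In set 1 the labelled day differs between the arms, so its part in a difference there cannot be told apart from that of A3B. Arms follow the words Sample and Control in the titles, because the genotype labels were not uniform. Control liver 11 of set 1 is labelled A3B + CAGS-rtTA, and control lung 87 CAGs alone. The A3B pancreases of mice 44 and 137 are labelled A3B alone and the pancreases of control mice 45 and 168 A3B + CAGS-rtTA, while the livers of these mice carry the opposite labels. Mouse numbers are used as replicate numbers below. In set 2, 7 mouse numbers occur in both tissues and are taken as the same animals.

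Total estimated counts were 65161064 to 98780481 in A3B livers, 104834346 to 118976013 in control livers, 74836907 to 87633469 in A3B pancreases and 87288183 to 95604352 in control pancreases. The depth of set 1 is unknown, since the processed table used here holds TPM alone, a length-scaled abundance. In set 1 the human transgene was read at 705 to 1705 TPM in A3B livers, 90.6 to 281 TPM in A3B lungs and 0.0929 to 0.526 TPM in controls, whereas it was not analysed in set 2. Defining markers were present in the labelled tissues, with the summed hepatocyte markers at 30560 to 79160 TPM in A3B livers of set 2 and the summed acinar markers at 42290 to 131600 TPM in A3B pancreases. Hepatocyte markers also summed to 610 TPM in control lung 88 and 623 and 426 TPM in A3B lungs 70 and 74. The other lungs held 29.1 to 61.0 TPM of them, and livers of set 1 held 2197 to 7874 TPM. Their part in the lung values was not tested. In control pancreases 10 genes held 62.2% and 59.5% of the counts, against 12.04% to 20.43% in A3B pancreases. Summed acinar markers were at 217000 to 238100 TPM in control pancreases. A TPM there is thus a share of a library filled by few genes. Fold changes in set 2 therefore come from edgeR with TMM scaling, which sets most genes level, and TPM is given for levels. A higher level in a whole organ in these bulk samples cannot be told apart from a larger share of the cells that express the gene.

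Background on the pathway gives an order to the genes. In a resting cell p53 is made and then degraded, because the ubiquitin ligase Mdm2, itself a p53 target, binds it and marks it for the proteasome. Kinases that sense broken or stalled DNA break this loop, p53 accumulates without any need for more Trp53 mRNA, and it binds a response element made of a pair of decamers next to its targets. The targets arrest the cell cycle (Cdkn1a, which encodes p21, and Ccng1, which encodes cyclin G1), modulate survival and death (Phlda3, an inhibitor of Akt, Eda2r, a death receptor of the TNF receptor family, Trp53inp1, a stress-induced nuclear and autophagy protein, and Zmat3, an RNA-binding zinc finger protein), or belong to wider stress programmes (Sesn1, a sestrin that restrains mTORC1, and Gdf15, a secreted cytokine). In liver and pancreas these targets are known to rise after genotoxic injury.

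The promoters of the members were read from RefSeq on GRCm38.p6, in windows from 250 bases before to 50 bases after an annotated start. The table held 11 windows for 8 members and none for Zmat3 or Trp53inp1. The p53 decamer consensus, 10 bases of 3 purines, the core C, A or T, A or T, G and 3 pyrimidines, reads the same on both strands, and it was searched with no mismatch. A decamer was in 2742 of 32817 windows of all genes (8.355%) and in 5 of the 11 member windows, and a pair of decamers at most 13 bases apart was in 24 windows of all genes (0.07313%). The upstream start of Cdkn1a, shown first because the transcript values below turn on it, was the member window with such a pair, at positions -73 and -51 from the start. The sequences before the start follow on the coding strand, with decamers in capitals. The main start of Cdkn1a, 2790 bases downstream, held no perfect decamer in its own window, which does not reach back to the pair. The bases right after the decamer at -51, tgacatgttc, differ from the consensus at their first base alone and so were not marked. The start of Sesn1 that carried most of its transcripts and the annotated start of Mdm2 held 1 decamer each.
Cdkn1a upstream start, chr17:29090729-29090978, plus strand: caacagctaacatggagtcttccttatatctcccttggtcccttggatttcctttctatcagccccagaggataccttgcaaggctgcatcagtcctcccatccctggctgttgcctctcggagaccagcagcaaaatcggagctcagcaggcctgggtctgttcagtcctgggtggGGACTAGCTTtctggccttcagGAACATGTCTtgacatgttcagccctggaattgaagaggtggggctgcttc
Cdkn1a main start, chr17:29093519-29093768, plus strand: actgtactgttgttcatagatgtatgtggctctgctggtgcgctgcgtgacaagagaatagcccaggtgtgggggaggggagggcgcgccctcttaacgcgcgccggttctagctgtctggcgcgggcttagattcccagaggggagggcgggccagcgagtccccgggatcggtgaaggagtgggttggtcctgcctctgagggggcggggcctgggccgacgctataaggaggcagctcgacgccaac
Sesn1 start, chr10:41887189-41887438, plus strand: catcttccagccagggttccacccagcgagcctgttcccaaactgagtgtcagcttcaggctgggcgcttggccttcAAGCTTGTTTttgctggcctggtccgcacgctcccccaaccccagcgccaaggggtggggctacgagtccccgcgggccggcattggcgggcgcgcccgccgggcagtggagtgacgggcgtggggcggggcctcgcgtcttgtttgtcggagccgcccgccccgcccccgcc
Mdm2 start, chr10:117710759-117711008, minus strand: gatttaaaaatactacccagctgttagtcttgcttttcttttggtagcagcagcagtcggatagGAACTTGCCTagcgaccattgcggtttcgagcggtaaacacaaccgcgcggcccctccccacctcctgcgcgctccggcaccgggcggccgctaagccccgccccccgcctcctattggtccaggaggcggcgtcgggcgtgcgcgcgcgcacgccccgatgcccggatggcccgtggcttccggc
Trp53 held GGACTTGCCC at -75 and Ccng1 GGGCAAGCCT at -185 from the start, and the windows of Phlda3, Gdf15 and Eda2r held none. These matches are a description of letters in a short window, and p53 binding was not measured. Elements with a mismatch or outside a window were not searched. A window without a match therefore does not mean a gene without a p53 element. The response element of Mdm2 is known to lie by a second promoter in the first intron, which these windows do not cover.

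Trp53 itself, at chromosome 11:69580359-69591873 on GRCm38 as are all positions below, did not pass the test in any of the 4 comparisons of A3B with control. In set 2 livers it was read at 17.9, 10.5, 17.1, 4.88, 9.41 and 13.6 TPM in mice 44, 137, 49, 125, 48 and 153 and at 18.5 and 11.8 TPM in control mice 45 and 168. The groups overlapped, with a log2 fold change of -0.67 (SE 0.36, edgeR adjusted p = 0.30). In pancreas the A3B samples held 8.13 to 36.9 TPM and the controls 1.88 and 5.41 TPM. After TMM scaling the same samples overlapped, at 9.10 to 31.5 TMM-scaled CPM against 16.5 and 18.2, and the log2 fold change was 0.35 (SE 0.37, edgeR adjusted p = 0.49). In set 1 livers Trp53 held 2.63, 2.15 and 3.27 TPM in A3B and 5.26, 2.83 and 2.87 TPM in controls, and in lungs 5.75, 6.51 and 5.55 against 6.41, 9.37 and 8.63 TPM. The lung difference was -0.39 on the log2(TPM + 1) scale (limma adjusted p = 0.080), and -0.53 without control lung 87, the library labelled CAGs alone (adjusted p = 0.026).

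Mdm2, the ligase that returns p53 to its resting level (chromosome 10:117688875-117710758, minus strand), rose in both sets of livers and in pancreas. Livers of A3B mice 44, 137, 49, 125, 48 and 153 held 65.3, 56.0, 50.5, 74.4, 27.4 and 34.6 TPM, and the control livers 10.3 and 11.9 TPM. Every A3B liver of set 2 was above both controls, and the log2 fold change was 1.58 (SE 0.33, edgeR adjusted p = 0.035). Set 1 livers showed 26.8, 41.9 and 20.04 TPM with A3B against 8.62, 5.24 and 4.41 TPM without, a difference of 2.09 (SE 0.38, limma adjusted p = 0.031). Without control liver 45 or 168 the set 2 adjusted p was 0.38 or 0.21, and the calls were also lost without A3B liver 44, 137 or 125 in set 2 and without control 91, control 92 or A3B 23 in set 1. With Y-linked expression as a covariate the set 2 liver call of Mdm2 was lost as well (1.54, edgeR adjusted p = 0.053). Y-linked genes summed to 0.344 TPM in control liver 45 and 35.5 TPM in control liver 168. In pancreas the A3B samples spanned 37.4 to 57.5 TPM of Mdm2 and the controls were at 3.51 and 9.86 TPM. On the TMM scale the pancreas groups came closer, 59.6 to 82.1 CPM against 42.9 and 47.0 CPM, with no overlap and a log2 fold change of 0.65 (SE 0.20, edgeR adjusted p = 0.031). The pancreas call was lost with upper quartile scaling and without any of A3B 137, A3B 153, control 45 or control 168. Lungs differed little, at 23.3, 20.8 and 21.9 TPM against 19.2, 18.3 and 16.7 TPM (0.27, limma adjusted p = 0.063). With TMM factors on TPM the lung difference was 0.34 and passed the test (limma adjusted p = 0.038). The liver change exceeded that of the lung by 1.82 on the log2 scale (SE 0.39, limma interaction adjusted p = 0.018), a call lost without control liver 92 or A3B lung 70 (adjusted p = 0.053 and 0.052).

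Cdkn1a (chromosome 17:29090976-29100727), whose product p21 blocks cyclin-dependent kinases, rose in all 4 comparisons. Livers of A3B mice 44, 137, 49, 125, 48 and 153 held 281, 206, 129, 177, 57.0 and 123 TPM, and the control livers 8.56 and 1.89 TPM. The lowest A3B liver, mouse 48, was well above both controls, and the log2 fold change was 4.61 (SE 0.73, edgeR adjusted p = 0.014). Leaving out control liver 168 gave an adjusted p of 0.12, and leaving out any other liver kept the call. Pancreases of A3B mice 44, 53, 49, 125, 137 and 153 held 242, 162, 231, 164, 195 and 186 TPM against 9.89 and 5.05 TPM in controls 45 and 168, with a log2 fold change of 2.14 after TMM scaling (SE 0.52, edgeR adjusted p = 0.011). The size of this change rested on the controls, being 3.61 without control 45 and 1.44 without control 168. Set 1 livers held 11.6, 8.80 and 12.6 TPM against 0.887, 0.806 and 0.155 TPM (2.91, SE 0.32, limma adjusted p = 0.011), and lungs 39.9, 32.4 and 28.5 against 3.19, 4.20 and 4.14 TPM (2.83, SE 0.15, limma adjusted p = 0.0014). The set 1 liver call was lost without control 91 or 92 (adjusted p = 0.076 and 0.075), and those of lung and pancreas were kept without any 1 sample. In each comparison the lowest A3B sample was above the highest control. The gene overlaps the antisense gene AC167363.2, and the libraries were made with a stranded kit.

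Ccng1, the other cell cycle gene (chromosome 11:40748552-40755311, minus strand), went in no common direction. Set 2 livers held 16.4 to 37.7 TPM with A3B and 11.2 and 8.69 TPM without, groups that did not overlap in TPM but did after TMM scaling (0.74, SE 0.37, edgeR adjusted p = 0.26). Pancreases held 34.1 to 70.2 TPM against 7.36 and 11.3 TPM, which TMM scaling turned into 78.2 to 118 against 115 and 76.4 CPM (0.10, SE 0.25, edgeR adjusted p = 0.78). In lungs Ccng1 fell, from 37.2, 31.1 and 33.4 TPM in controls to 22.8, 25.7 and 27.9 TPM in A3B (-0.40, SE 0.11, limma adjusted p = 0.034), a call lost without A3B lung 69 or 70 or control lung 87 or 91. In set 1 livers it was at 17.4, 53.0 and 21.2 TPM against 12.9, 10.9 and 9.89 TPM, above the controls in each A3B liver but not past the test (1.20, limma adjusted p = 0.11). The liver and lung changes differed by 1.60 (limma interaction adjusted p = 0.055), and by 1.51 (adjusted p = 0.027) with the mouse as a block.

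**Figure D1:**
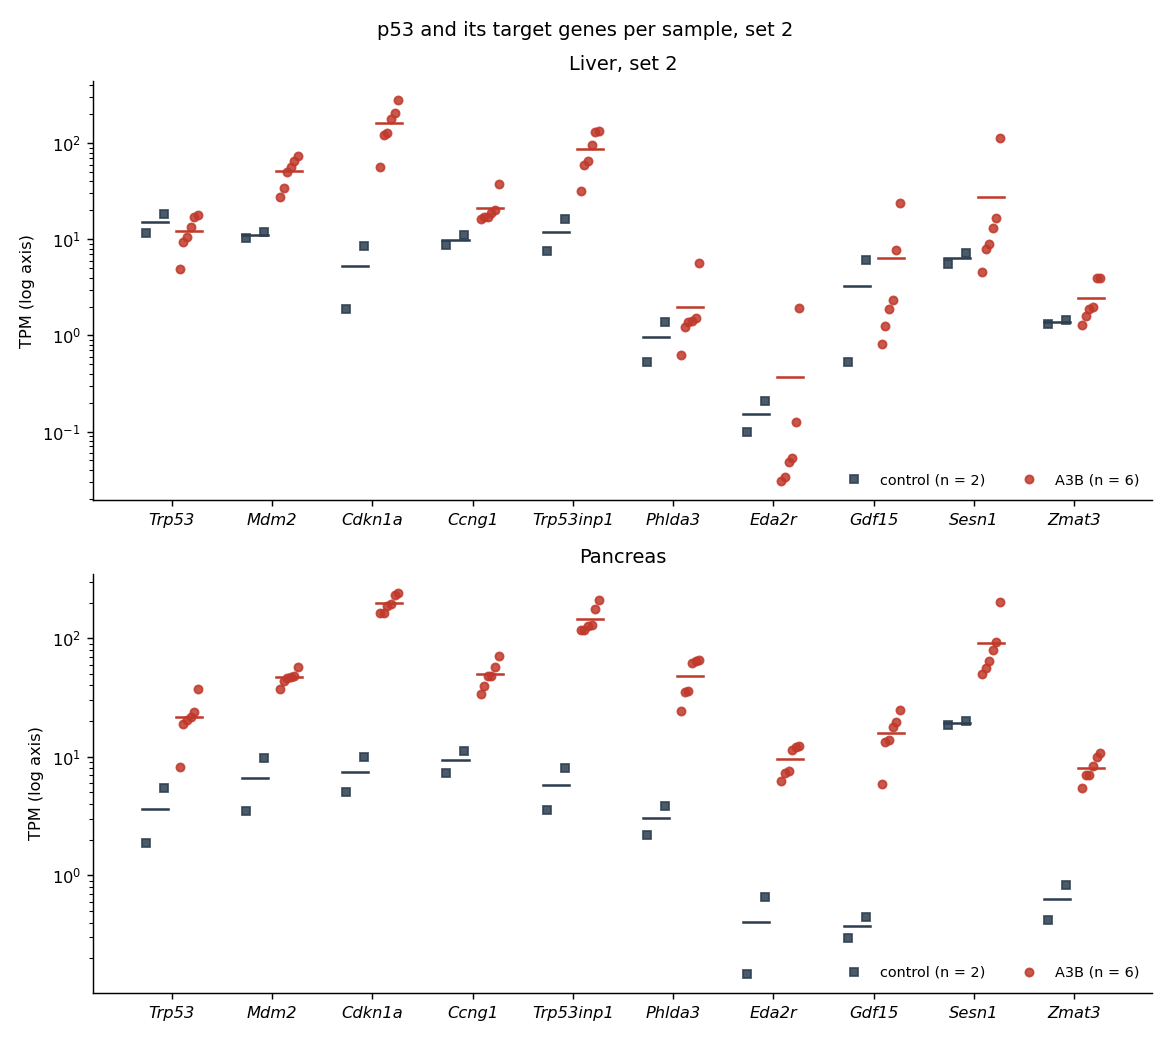
Levels of the 10 genes in each liver and pancreas of set 2, in TPM on a log axis, with A3B and control samples as points and the group mean as a line. Cdkn1a, Mdm2 and Trp53inp1 are above every control in both tissues, and A3B liver 49 lies apart for Phlda3, Eda2r and Gdf15.

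Trp53inp1 (chromosome 4:11156431-11174379) was, with Cdkn1a, the member that rose in all 4 comparisons. Livers of A3B mice 44, 137, 49, 125, 48 and 153 held 130, 64.9, 135, 96.1, 59.0 and 32.0 TPM against 16.3 and 7.53 TPM in controls (2.65, SE 0.58, edgeR adjusted p = 0.039). Pancreases held 117 to 210 TPM against 3.57 and 8.10 TPM (2.56, SE 0.39, edgeR adjusted p = 0.0012). Set 1 livers held 285, 464 and 393 TPM against 59.3, 27.0 and 22.7 TPM (3.45, SE 0.43, limma adjusted p = 0.013), and lungs 395, 357 and 354 TPM against 96.3, 64.2 and 70.4 TPM (2.27, SE 0.16, limma adjusted p = 0.0016). The liver calls were lost without A3B 44, 137 or 125 or either control in set 2 (adjusted p of 0.069 to 0.35) and without A3B 23, control 91 or control 92 in set 1 (0.052 to 0.082). No A3B sample overlapped a control, and the liver and pancreas changes of set 2 differed by 0.08 (SE 0.61, edgeR interaction adjusted p = 0.97).

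The genes of survival and death other than Trp53inp1 rose in pancreas. They did not pass the test in livers of set 2, and the difference between these tissues did not pass it either. Phlda3 (chromosome 1:135766119-135769136) held 35.3, 35.9, 62.1, 24.4, 63.9 and 65.1 TPM in the pancreases of A3B mice 44, 53, 49, 125, 137 and 153 and 2.20 and 3.84 TPM in controls (1.88, SE 0.41, edgeR adjusted p = 0.0063). Eda2r (chromosome X:97333840-97377216, minus strand) held 6.27, 12.4, 11.5, 7.57, 12.2 and 7.33 TPM against 0.148 and 0.655 TPM (1.93, SE 0.34, edgeR adjusted p = 0.0023). Zmat3 (chromosome 3:32334792-32366014, minus strand) held 7.03, 5.40, 10.9, 6.997, 8.40 and 9.97 TPM against 0.424 and 0.827 TPM (1.46, SE 0.28, edgeR adjusted p = 0.0036). For each of these genes the lowest A3B pancreas was above the highest control, in TPM and after TMM scaling.

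In livers of set 2 the same 3 genes overlapped between the groups. Phlda3 held 0.625 to 1.502 TPM in 5 A3B livers and 5.73 TPM in liver 49, against 1.38 and 0.532 TPM (0.83, SE 0.81, edgeR adjusted p = 0.58). Eda2r held 0.0305 to 0.125 TPM in 5 A3B livers and 1.91 TPM in liver 49, against 0.206 and 0.0991 TPM (0.59, SE 1.55, edgeR adjusted p = 0.85). Zmat3 held 1.27 to 3.98 TPM against 1.44 and 1.32 TPM (0.33, SE 0.39, edgeR adjusted p = 0.65). The differences of the changes, pancreas minus liver, were 1.23 for Phlda3, 1.52 for Eda2r and 1.30 for Zmat3, with edgeR interaction adjusted p of 0.35, 0.58 and 0.067. In lungs Phlda3 fell, from 7.10, 8.81 and 6.85 TPM in controls to 4.06, 5.30 and 3.39 TPM (-0.72, SE 0.16, limma adjusted p = 0.016), a call lost without A3B lung 69 (adjusted p = 0.052). Livers of set 1 held 0.376, 1.45 and 0.355 TPM against 0.162, 0.207 and 0.258 TPM, below the filter of 1 TPM. Phlda3 entered the liver minus lung fit of all 12 samples through its lung levels, and with a pseudocount of 1 a change at these liver levels is held near 0. The estimate there was 1.18 with a pseudocount of 1 (SE 0.33, limma interaction adjusted p = 0.045) and 2.02 with a pseudocount of 0.1 (adjusted p = 0.064), so its size and call depend on the pseudocount. The call was also lost in 9 of 12 fits that left out 1 sample, with a limma adjusted p of up to 0.10. Zmat3 and Eda2r were below the filter in both tissues of set 1. For Zmat3 the set 1 livers held 0.255, 0.870 and 0.258 TPM against 0.245, 0.147 and 0.145 TPM, so that, as for Phlda3, each A3B liver was above the controls, with no test.

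Gdf15, a cytokine that signals stress to the brainstem (chromosome 8:70629393-70632456, minus strand), rose in pancreas and lung. Pancreases of A3B mice 44, 53, 49, 125, 137 and 153 held 13.8, 13.2, 19.8, 5.87, 17.8 and 24.6 TPM against 0.298 and 0.444 TPM (3.14, SE 0.55, edgeR adjusted p = 0.0022). Lungs held 18.9, 15.4 and 16.1 TPM against 7.24, 8.40 and 5.91 TPM (1.13, SE 0.14, limma adjusted p = 0.0039). The livers of both sets overlapped their controls. In set 2 they were at 7.78, 1.26, 24.1, 0.824, 2.31 and 1.89 TPM for mice 44, 137, 49, 125, 48 and 153 against 6.04 and 0.528 TPM (0.61, SE 1.28, edgeR adjusted p = 0.81). In set 1 they were at 3.93, 33.6 and 59.8 TPM against 24.5, 19.9 and 11.8 TPM (0.20, limma adjusted p = 0.89).

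Sesn1 (chromosome 10:41809935-41908424), which overlaps the gene 9930024M15Rik, rose in lung, from 38.1, 33.4 and 46.2 TPM to 73.5, 80.7 and 69.9 TPM (0.92, SE 0.14, limma adjusted p = 0.0055). In livers of set 2 mouse 125 stood apart, at 114 TPM, with the other A3B livers at 4.63 to 16.6 TPM and the controls at 7.19 and 5.49 TPM. The log2 fold change of 1.68 (SE 1.25, edgeR adjusted p = 0.45) was 0.14 without that liver. The pancreas of mouse 125 was also highest, at 204 TPM, with the others at 49.6 to 92.8 TPM and the controls at 20.1 and 18.6 TPM. After TMM scaling the pancreas groups overlapped, at 70.3 to 325 CPM against 229 and 82.5 CPM (-0.11, SE 0.60, edgeR adjusted p = 0.90). Mouse 125 also had the lowest Trp53 of the A3B mice in both tissues. Set 1 livers held 42.0, 14.6 and 17.6 TPM against 14.5, 11.8 and 8.76 TPM (0.90, limma adjusted p = 0.20).

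**Figure D2:**
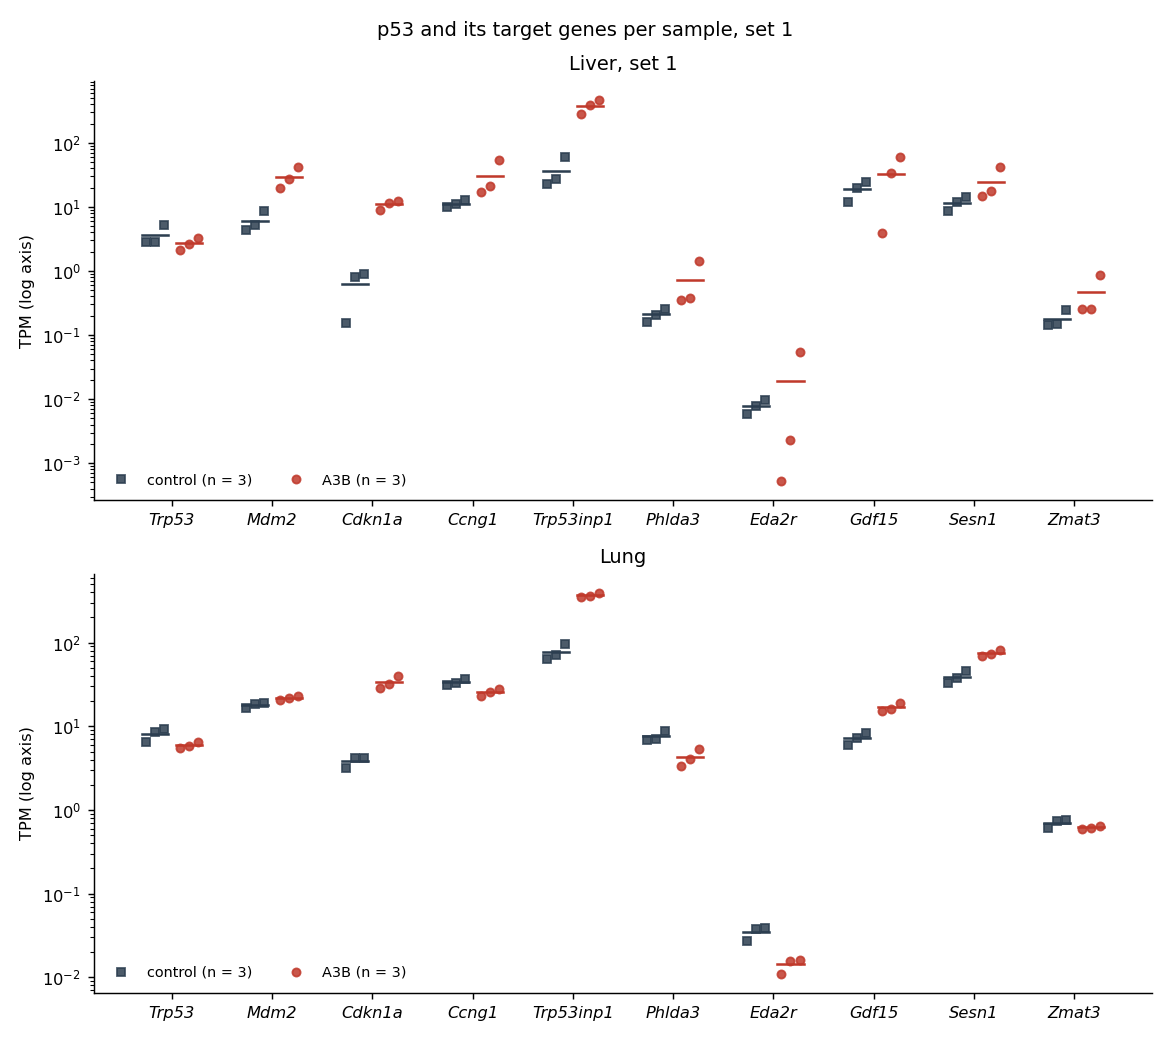
Levels of the 10 genes in each liver and lung of set 1, in TPM on a log axis, with A3B and control samples as points and the group mean as a line. Cdkn1a and Trp53inp1 are higher with A3B in both tissues, while Ccng1 and Phlda3 are lower with A3B in lung.

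The counts over the members were read against all genes of each test. In set 2 livers 3 of 10 members rose and 0 fell (Benjamini-Hochberg over 17365 genes), where 1.26% of all genes rose and 2.41% fell. The median log2 fold change of the members was 0.79, that of all genes 0.21, and DESeq2 also called 3 higher and 0 lower, of 8 members with an adjusted p. At an unadjusted p under 0.05 edgeR counted 3 higher and 0 lower. In pancreas 7 of 10 rose and 0 fell over 19123 genes, where 17% rose and 14.9% fell, and the medians were 1.67 and 0.093. DESeq2 counted 7 and 0 as well, and at an unadjusted p under 0.05 edgeR counted 7 and 0. In set 1 livers 3 of 7 members tested rose and 0 fell over 11507 genes, where 6.07% rose and 1.86% fell, with medians of 1.20 and 0.386. At an unadjusted p under 0.05 limma counted 4 higher and 0 lower there. Without the filter of 1 TPM the calls of Mdm2 and Trp53inp1 were lost (adjusted p = 0.071 and 0.061). In lung 4 of 8 members tested rose and 2 fell over 13651 genes, where 16.1% rose and 20.8% fell, with medians of 0.596 and -0.059. At an unadjusted p under 0.05 limma counted 5 higher and 3 lower in lung. Cdkn1a and Trp53inp1 were the members called in each comparison. Of the libraries with conflicting labels, leaving out control liver 11 lost no call of a member within set 1 livers, leaving out control lung 87 lost that of Ccng1 in lung, leaving out control pancreas 45 or 168 lost that of Mdm2 in pancreas (edgeR adjusted p = 0.14 and 0.072), and leaving out A3B pancreases 44 and 137 together kept 7 members higher and 0 lower in pancreas.

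The scaling of the pancreas libraries bears on these folds. The TMM factors were 0.210 and 0.443 in control pancreases and 1.30 to 1.79 in A3B pancreases. With counts scaled by their totals all 10 members were higher, and the median of all genes was then 2.29. Myeloid markers summed to 1139 to 3488 TPM in A3B pancreases against 39.8 and 530 TPM in controls (3 of 6 markers higher, none listed at 0), fibroblast markers to 940 to 1441 TPM against 37.9 and 168 TPM (4 of 5 higher) and ductal markers to 312 to 725 TPM against 12.2 and 50.6 TPM (3 of 5 higher). Acinar markers summed to 42290 to 131600 TPM against 217000 to 238100 TPM, with 5 of 6 lower. The part of these shifts in the member values was not tested.

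**Figure D3:**
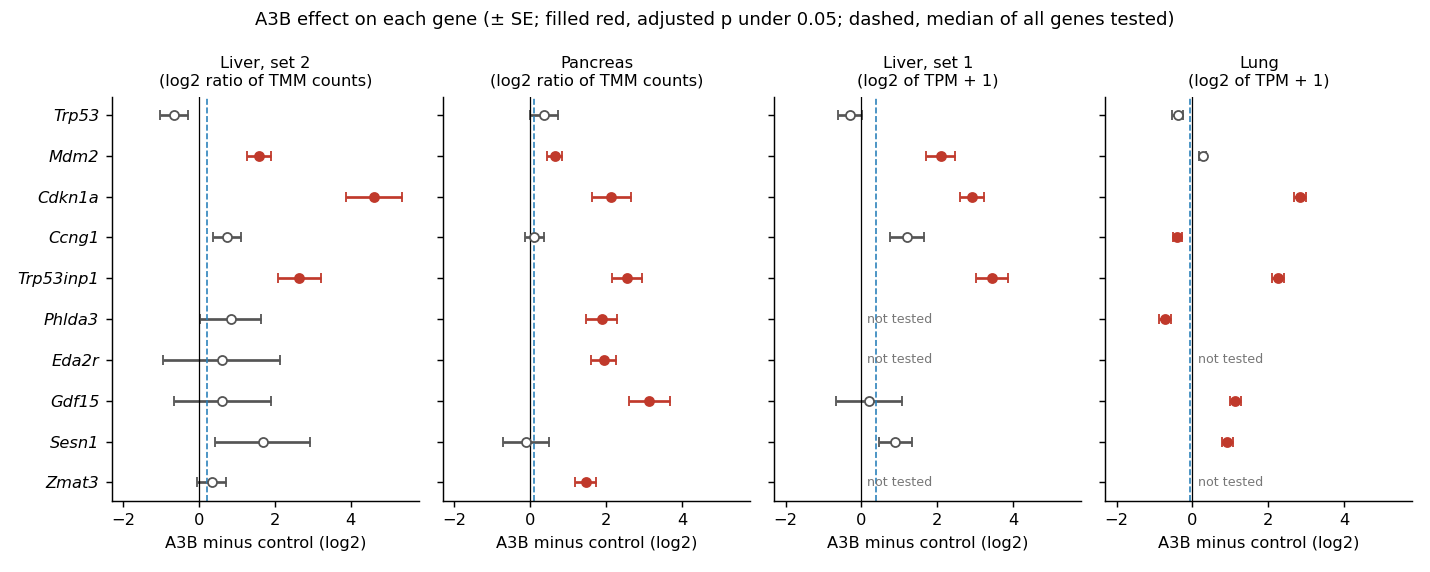
Fold changes of the 10 genes, A3B against control, in log2 units with bars of 1 SE, for liver and pancreas of set 2 (edgeR) and liver and lung of set 1 (limma). Filled points pass an adjusted p of 0.05, and Cdkn1a and Trp53inp1 are filled in all 4 comparisons.

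The changes in pancreas and liver were compared in 1 fit of the 16 samples of set 2. Of the 10 members 0 differed higher in pancreas and 0 lower in the edgeR interaction test, where 6.87% and 5.03% of 19908 genes did, and 2 and 2 had an unadjusted p under 0.05. The pancreas minus liver estimate for Cdkn1a was -2.29 on the log2 scale (SE 0.77, adjusted p = 0.063). With the mouse as a block, over the 7 mice that gave both tissues, this difference was -2.33 (SE 0.42, adjusted p = 0.017), and that of Trp53 was 1.14 (SE 0.30, adjusted p = 0.0495) in place of 1.20 (adjusted p = 0.17). The same 7 mice without the block gave -2.43 for Cdkn1a (adjusted p = 0.057) and 1.19 for Trp53 (adjusted p = 0.22). Leaving out mouse 48 alone, with no block, also called Cdkn1a (-2.45, adjusted p = 0.040), leaving out mouse 125 called Trp53 (adjusted p = 0.036), and with counts scaled by their totals the Cdkn1a difference was -0.37 (adjusted p = 0.71). Cdkn1a was read at 177 TPM in liver and 164 TPM in pancreas of mouse 125 and at 129 and 231 TPM in those of mouse 49, the closest being mouse 137 at 206 and 195 TPM. Eda2r of mouse 137 was 0.0339 TPM in liver and 12.2 TPM in pancreas. In set 1 the liver minus lung test called 2 of 8 members higher and 0 lower, Mdm2 and Phlda3, of which Phlda3 passed the filter through lung alone, where 8.81% and 1.94% of 13477 genes were called, with 4 higher and 0 lower at an unadjusted p under 0.05. With the mouse as a block Ccng1 and Trp53inp1 joined them, at 1.51 and 1.27 (adjusted p = 0.027 and 0.047). The liver minus lung estimate for Cdkn1a was 0.08 (SE 0.33, adjusted p = 0.89) on the log2(TPM + 1) scale, which compresses the change of the low control livers, and 1.07 (SE 0.63, adjusted p = 0.29) with a pseudocount of 0.1. The ratio of mean TPM, A3B to control, was 17.8 in liver and 8.74 in lung. The transgene was lower in every A3B lung than in any A3B liver.

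**Figure D4:**
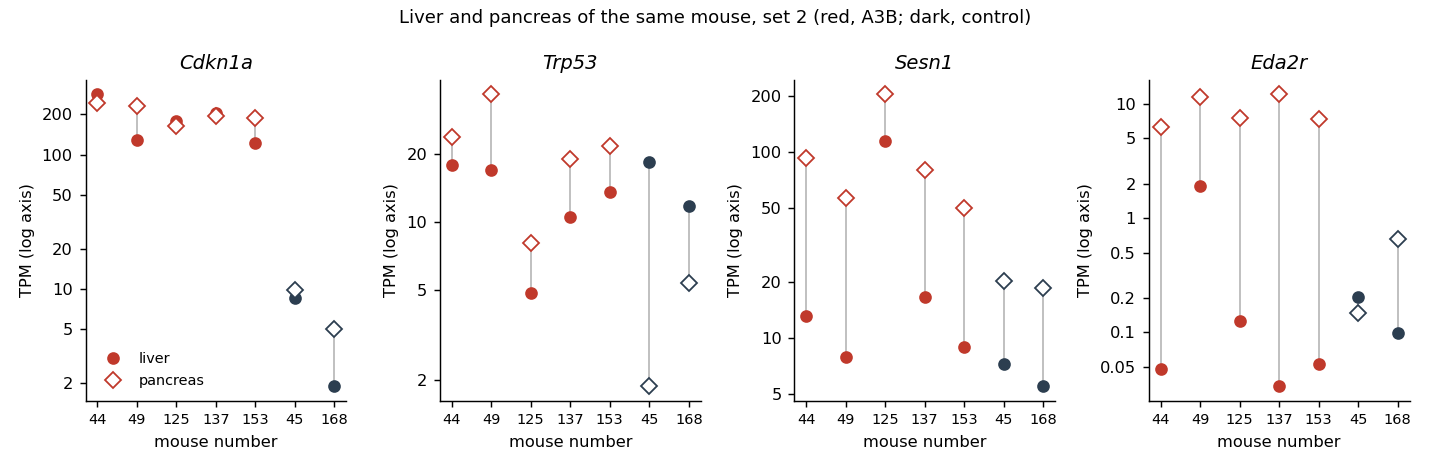
Liver (filled circle) and pancreas (open diamond) of the same mouse, joined by a line, for Cdkn1a, Trp53, Sesn1 and Eda2r in TPM on log axes. Mouse 125 is highest for Sesn1 and, among A3B mice, lowest for Trp53 in both organs, and Eda2r is far lower in liver than in pancreas of each A3B mouse.

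Mouse 49 carried the highest A3B liver values of 5 members. For Trp53inp1 its 135 TPM lay close to the 130 TPM of liver 44, and for the other 4 it stood apart. Its liver held 37.7 TPM of Ccng1, 5.73 TPM of Phlda3, 1.91 TPM of Eda2r and 24.1 TPM of Gdf15, and the next A3B liver 19.99, 1.502, 0.125 and 7.78 TPM. The same liver had the lowest hepatocyte marker sum, 30560 TPM against 43470 to 79160 TPM in the other A3B livers and 142300 and 86200 TPM in controls, and the highest myeloid sum, 486 TPM against 15.1 to 183 TPM in the other A3B livers and 155 and 132 TPM in controls. Acinar markers were not raised in liver 49, and their highest sums were 447 TPM in A3B liver 153 and 211 TPM in A3B liver 44. In set 1 A3B liver 28 was highest for Trp53inp1, Mdm2, Ccng1, Phlda3, Eda2r and Zmat3. Its hepatocyte sum, 2197 TPM, was lowest, with 4343 and 4756 TPM in the other A3B livers and 6468 to 7874 TPM in controls, and its myeloid sum, 655 TPM, was highest, with 97.0 and 247 TPM in the other A3B livers and 134 to 186 TPM in controls. Whether these markers bear on the member values was not tested. Without liver 49 the log2 fold changes of Eda2r and Gdf15 were -1.76 and -0.66, and without mouse 49 the pancreas minus liver test called Eda2r (3.72), Gdf15 (3.83), Phlda3 (1.84) and Zmat3 (1.39).

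The order of levels among the members differed between organs, arms and sets, in TPM, a measure per length. TPM came from kallisto in set 2 and from STAR alignments in set 1. A difference in level between the sets therefore cannot be told apart from that of the quantification. In control livers of set 2 Trp53 was highest, at 15.2 ± 4.79 TPM (SD, n = 2), ahead of Trp53inp1 at 11.9 and Mdm2 at 11.1 TPM, neighbours that lay within their spread. In A3B livers of set 2 Cdkn1a was highest, at 162 ± 77.5 TPM (SD, n = 6), followed by Trp53inp1, Mdm2 and Sesn1, and the first pair overlapped in their spread. Sesn1 held its place through liver 125, the other 5 livers being below the mean of Ccng1, 21.2 TPM. In A3B pancreases the order was Cdkn1a at 197 ± 33.5 TPM, Trp53inp1 at 146 TPM, Sesn1 at 91.1 TPM, then Ccng1, Phlda3 and Mdm2 at 49.5, 47.8 and 46.7 TPM, which did not differ beyond their spread, then Trp53 at 21.7 TPM. There Cdkn1a, at 162 to 242 TPM, and Trp53inp1, at 117 to 210 TPM, overlapped. Sesn1 ranged from 49.6 TPM to the 204 TPM of pancreas 125 and overlapped Ccng1, at 34.1 to 70.2 TPM. Among set 1 livers Trp53inp1 led in both arms, at 381 ± 90.5 TPM with A3B and 36.4 ± 19.97 TPM without (SD, n = 3), and Cdkn1a ranked sixth in A3B livers, at 10.97 ± 1.95 TPM. The means of Gdf15, Ccng1, Mdm2 and Sesn1 lay between them at 24.7 to 32.4 TPM, within their spread. In lungs Trp53inp1 also led in both arms, at 368 TPM with A3B and 76.9 TPM without.

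Transcripts of the members were tested as a secondary measure, since kallisto divides reads that several transcripts share. In pancreas 14 of 38 transcripts tested rose and 0 fell, from 6 genes, where 12.9% of 68650 transcripts rose and 3.37% fell. At an unadjusted p under 0.05 edgeR counted 20 higher and 0 lower. Mdm2-201 rose by 2.59 (edgeR adjusted p = 0.0042), from 0.583 and 2.91 TPM to 24.8 to 37.6 TPM, and Trp53inp1-201 by 3.11 (adjusted p = 0.0038). Phlda3-201 rose by 2.44 (adjusted p = 0.0097) and Gdf15-202 by 3.59 (adjusted p = 0.015). Another Mdm2 transcript, 52.1% of the mean Mdm2 TPM in control pancreases, was at -1.57 (SE 1.44, edgeR adjusted p = 0.48). The pancreas median was 0.603 over all transcripts and 0.093 over all genes, so transcript folds cannot be set directly against gene folds. Ccng1-201 made up 100% of its gene and was at 0.576 as a transcript and 0.104 as a gene. The part of scaling in these folds was not tested. In liver 0 of 30 rose and 0 fell, where 0.0247% of 60653 transcripts rose and 0.137% fell, and edgeR counted 7 higher and 0 lower at an unadjusted p under 0.05. Cdkn1a-201, the main transcript, was at 4.38 there (adjusted p = 0.076). For Sesn1 the transcript Sesn1-201, from the start whose sequence is given above, made up 92.4% of the mean TPM of A3B livers and 97.7% of that of A3B pancreases.

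Both starts of Cdkn1a were read apart. Transcripts from the main start held 54.6 to 273 TPM in A3B livers and 145 to 223 TPM in A3B pancreases, against 8.24 and 1.75 TPM in control livers and 8.79 and 4.45 TPM in control pancreases. Those from the upstream start, the one that follows the pair of decamers, held 9.66 to 20.5 TPM in A3B pancreases, or 5.89% to 9.19% of the gene, and 0.259 and 0 TPM in controls. In A3B livers the upstream start held 0 to 0.815 TPM, at most 0.631% of the gene, in the liver of mouse 49, and it was listed at 0 in both control livers. The ranges of A3B liver and A3B pancreas for the upstream start did not overlap, while those for the main start did. Of its transcripts Cdkn1a-202 rose in pancreas by 4.44 (SE 1.30, edgeR adjusted p = 0.046). In liver the estimate for Cdkn1a-202 was 6.33, with an SE of 3.01, and did not pass the test (adjusted p = 0.44).

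**Figure D5:**
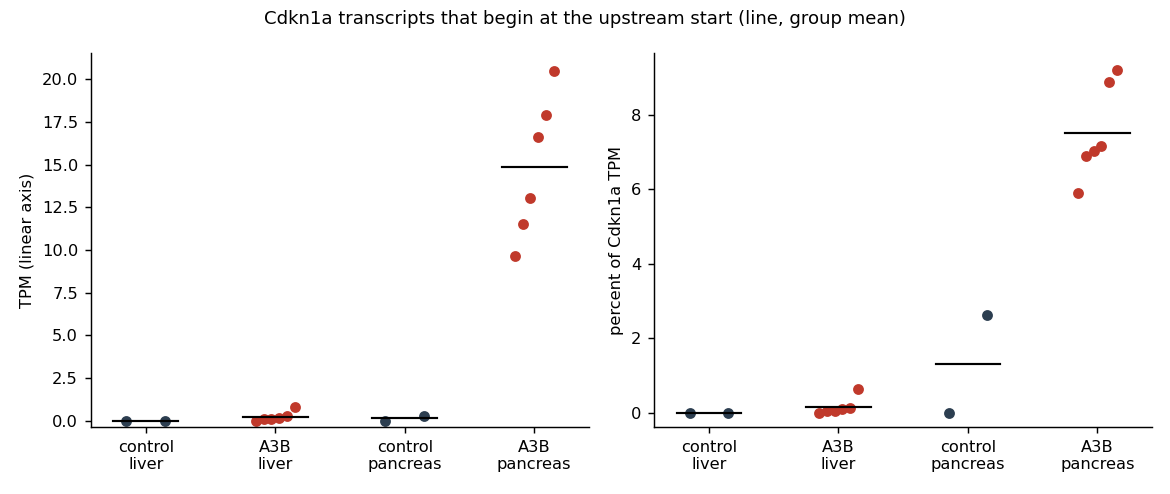
Cdkn1a transcripts from the upstream start in each liver and pancreas of set 2, as TPM (left) and as percent of the Cdkn1a TPM (right). Points are samples by arm, and the upstream start is read at 9.66 to 20.5 TPM in A3B pancreases and at no more than 0.815 TPM in A3B livers.

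Other targets of p53 were taken from a list of 60 genes. In set 2 livers 3 of 56 tested rose and 0 fell, where 1.26% and 2.41% of all genes did, with 11 higher and 2 lower at an unadjusted p under 0.05 and 8 and 1 by DESeq2. They were Ccng2, an atypical cyclin (2.72, edgeR adjusted p = 0.010), Ddit4, an inhibitor of mTORC1 (3.48, adjusted p = 0.030), and Rrm2b, the p53-inducible subunit of ribonucleotide reductase (1.84, adjusted p = 0.041). Each call was lost without control 45 or 168 (adjusted p of at most 0.14, 0.30 and 0.33), that of Ddit4 also without A3B 44 or 137, and that of Rrm2b also without A3B 44, 137, 125 or 153. In pancreas 30 of 57 rose and 4 fell, where 17% and 14.9% of all genes did, with a median of 0.822. Rises included the receptor Tnfrsf23 (3.32), Btg2, an antiproliferative gene (2.98), Sulf2, an extracellular sulfatase (2.98), and the sestrin Sesn2 (2.7). Rps27l, a paralog of a ribosomal protein, and Triap1, an inhibitor of apoptosis, fell by 3.93 and 1.34. In set 1 livers 5 of 46 rose and 0 fell, where 6.07% and 1.86% of all genes did, with 12 higher and 1 lower at an unadjusted p under 0.05 in limma, including Btg2 (3.84), Ddit4 (3.596), Sesn2 (1.77) and Rrm2b (1.54). These 4 calls were lost without control 91 or 92 (limma adjusted p of 0.059 to 0.18), and those of Ddit4, Sesn2 and Rrm2b also without A3B 23. In lung 12 of 53 rose and 10 fell, near the 16.1% and 20.8% of all genes, with Ddit4 (2.56), the death receptor Tnfrsf10b (2.35), Sesn2 (1.27) and Tnfrsf23 (0.86) among the rises. Ddit4 was the member of this list called higher in all 4 comparisons, with the losses in both liver sets given above. With counts scaled by their totals 51 rose in pancreas and 1 fell, and Triap1 was then at 0.93.

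Regulators of p53 and kinases of the damage response gave counts that stood near those of all genes in pancreas. In set 2 livers 0 of 20 were called, where 1.26% and 2.41% of all genes were, with 2 higher and 1 lower at an unadjusted p under 0.05 by edgeR and 1 and 1 called by DESeq2. In pancreas 3 of 21 rose and 5 fell, against 17% and 14.9% of all genes. Those that rose were Hipk2 (1.64) and Dyrk2 (1.31), kinases of p53, and its acetylase Ep300 (0.94), and falls included the damage kinase Prkdc by 1.12 and the ribosomal proteins Rpl5 and Rpl11, which bind Mdm2, by 3.21 and 1.68. Without control 45 the calls of Ep300 (0.59), Hipk2 (1.18), Dyrk2 (1.08) and Rpl11 (-0.98) were lost, that of Ep300 also without A3B 44, 49 or 125, and that of Prkdc without control 168 (-0.78). Without A3B 44 and 137 together those of Ep300 and Hipk2 were lost. With counts scaled by their totals 14 of these regulators rose in pancreas and 1 fell, and Prkdc and Rpl11 were then at 1.001 and 0.73. Rpl5, Rpl11 and Rps27l have near-identical copies in the genome, among which reads can be split. In set 1 livers 2 of 15 rose, Sirt1, a deacetylase of p53 (1.80), and Ing1 (1.73), where 6.07% of all genes rose. Both calls were lost without control 91, control 92 or A3B 23 (limma adjusted p of at most 0.20), and that of Sirt1 also without A3B 28 or 70. In lung 6 of 18 rose and 2 fell, against 16.1% and 20.8% of all genes, with Hipk2 (1.30), Crebbp (0.97) and Ep300 (0.94) higher and the checkpoint kinase Chek2 lower by 0.74.

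Cdkn1a and some sestrins also belong to the integrated stress response, the programme of ATF4, so 12 genes of that response were read as a comparison. In set 2 livers Cdkn1a itself was the gene called, against 1.26% of all genes higher and 2.41% lower. At an unadjusted p under 0.05 edgeR counted 5 higher and 0 lower, and the median of the list was 1.26. In pancreas 5 rose and 4 fell, against 17% and 14.9% of all genes. The rises were Sesn2 (2.7), Cdkn1a (2.14), Atf3 (1.91), Ppp1r15a (1.90) and Trib3 (1.13). The falls were Fgf21 (-5.53), Chac1 (-2.22), Asns (-1.76) and Atf4 itself (-1.30). In set 1 livers the 2 that rose were Cdkn1a and Sesn2, against 6.07% of all genes, and in lung 5 rose, against 16.1%, again with Cdkn1a and Sesn2.

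Genes whose levels followed those of Cdkn1a most closely over the 16 samples of set 2, after centring within each tissue, were Hif3a, Zbtb16 and Cend1, with Pearson's r of 0.97, 0.95 and 0.94 among 16737 genes. Mdm2 ranked 147 and Trp53inp1 159 by this measure, each with r of 0.84, and Trp53 had r of -0.28. For Mdm2 the closest genes were Rassf1, Orc2 and Eif1a, with r of 0.96, 0.95 and 0.95, and Trp53 had r of -0.48. These points share the difference between arms, so the values are a description.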

How the data were processed

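RNA-seq of 28 samples was analysed, 16 in set 2 (liver and pancreas) and 12 in set 1 (liver and lung). For set 2 the authors deposited, per transcript, estimated counts and TPM from kallisto 0.46.1, with no later scaling of the counts. For set 1 the authors deposited TPM per gene, made from reads aligned with STAR 2.7.1a and, by the names of the alignments, after removal of duplicates. Of 119414 transcripts, 116640 were assigned to genes with GENCODE M21 on GRCm38, transcripts left without a gene held 0.230% to 1.47% of the counts, and estimated counts and TPM were summed per gene. The quasi-likelihood test of edgeR 4.0.16, in its robust form, was applied to rounded counts after filterByExpr and TMM normalization. Set 1 was tested with limma 3.58.1 (trend, robust) on log2(TPM + 1), leaving out genes that averaged under 1 TPM. Fold changes of set 1 are on that scale, which understates the change of low genes. Differences between tissues are interaction terms. P-values are two-sided, adjusted by Benjamini-Hochberg over all features tested, with a threshold of 0.05. SE in edgeR was taken as the fold change over the square root of F. The fits were tested on simulated data with R 4.3.3.

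Livers and pancreases with the same mouse number were taken as the same animal, and their deviations from the group means correlated at -0.0245 to 0.293. The livers of mice 44, 137 and 125 correlated best with the pancreas of their own number, those of mice 49, 153, 45 and 168 with another. Y-linked genes summed to 1.66 TPM in liver 44, coded as expressed, and 0.244 TPM in pancreas 44, coded as not. The other mice with both organs were coded alike in both. Fits with the mouse as a block rest on this pairing. Alternatives were DESeq2 1.42.0, other scalings, filters and pseudocounts, Y-linked expression as a covariate, the mouse as a replicate block, and leaving out each sample. Leaving out both A3B pancreases with conflicting labels, and keeping only the mice with both tissues without a block, were added after seeing the data. Named genes were the members, the genes with the smallest p among those called in each list (up to 6 per tissue in set 2 and 4 in set 1), transcripts called, and the 3 genes most like Cdkn1a and Mdm2. The members and lists were chosen with earlier results of these data known.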

Additional observations from a re-analysis of the deposited data

Results flagged for a closer look

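In a group of 6 samples, a value was singled out where its gap to the nearest sample exceeded Dixon's 95% limit. This occurred in 6 of 20 groups, where chance gives about 1 in 20. In A3B liver 49 it held for Ccng1 (37.7 TPM), Phlda3 (5.73 TPM), Eda2r (1.91 TPM) and Gdf15 (24.1 TPM), the liver with the lowest hepatocyte and the highest myeloid marker sum. Sesn1 stood apart in both organs of mouse 125, at 114 TPM in liver and 204 TPM in pancreas.

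The A3B change was called different between organs by an interaction test for the genes below. Pancreas minus liver in set 2 was called for 0 members, for 4 higher and 4 lower of 57 other p53 targets and for 2 higher and 2 lower of 21 regulators, where 6.87% and 5.03% of all genes were. Among the genes named in the report it gave -1.82 for Ccng2, -2.08 for Rrm2b, -3.53 for Rps27l, -2.99 for Rpl5, -1.85 for Rpl11, 1.28 for Dyrk2 and 2.81 for Sulf2 on the log2 scale. The others, named after their values were seen, were Xpc (2.01), Pml (1.92), Ephx1 (2.08), Rchy1 (-1.86) and the damage kinase Atm (1.77).

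Liver minus lung in set 1 was called for 5 higher and 2 lower of 53 other targets and 2 higher and 0 lower of 18 regulators, where 8.81% and 1.94% of all genes were. It gave 1.82 for Mdm2, 1.18 for Phlda3 (which passed the filter through lung alone), 3.26 for Btg2, 1.55 for Ing1, 1.54 for Rrm2b and 2.46 for Ccng2. The others, also named after their values were seen, were Rchy1 (1.41), Trp53i13 (1.11), Cdkn2a (1.29), Bbc3 (-1.49) and Spata18 (-1.39). Cdkn2a, among the regulators counted, passed the filter in lung but not in liver, as did Phlda3. With a pseudocount of 1 its liver change is held near 0, and in lung it was at -1.75.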

How the results depend on the processing

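Over the alternatives that left out no sample, 365 values of named genes kept direction and side of the threshold, 22 lost and 12 gained a call and 15 changed sign. On leaving out 1 sample these counts were 523, 78, 12 and 27. The causes were not tested. Signs turned with total scaling for pancreas Sesn1 (2.32), Triap1 (0.93), Rpl11 (0.73) and Prkdc (1.001) and for pancreas minus liver Mdm2 (0.79), Ccng1 (1.20) and Sesn1 (0.33). With limma on log2(TPM + 1) pancreas Sesn1 was 2.01, Triap1 0.92 and Rpl11 0.76. They also turned for liver Eda2r with the Y-linked covariate (-0.25), pancreas Ccng1 with upper quartile factors (-0.084), set 1 liver Gdf15 with quantile normalization (-0.16) and TMM on TPM (-0.19), and liver minus lung Sesn1 with log2(TPM + 0.1) (0.007). Members called higher in set 1 livers were 1 without the filter, and lower in lung 1 with TMM on TPM. TMM on TPM also called Mdm2 higher in lung, and the Y-linked covariate lost the Mdm2 call in set 2 livers. Pancreas minus liver calls were 1 higher and 1 lower with the mouse as a replicate block over the 7 mice with both tissues, 0 and 0 in the same mice without it (added after seeing the data), and 3 higher with total scaling. Liver minus lung calls were 4 with the replicate block and 1 with log2(TPM + 0.1). Pancreas transcript calls were 25 with total scaling. The block changed no other member call.

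Leaving out 1 sample at a time gave 0 to 3 members higher in set 2 livers (0 without control 168, 1 without A3B 44, 137, 125 or control 45), 0 to 3 in set 1 livers (0 without control 91 or 92, 1 without A3B 23) and 6 to 7 in pancreas. Lung gave 0 to 2 lower (0 without A3B 69, 1 without A3B 70 or control 91). Pancreas minus liver gave 0 to 4 higher (4 without mouse 49, 1 without 125) and 0 to 1 lower (1 without 48), liver minus lung 0 to 3 higher, and pancreas transcripts 9 to 18 (9 without control 45, 18 without 168). Ranges that crossed 0 were -1.76 to 0.83 (Eda2r) and -0.66 to 2.92 (Gdf15) in set 2 liver, -0.15 to 0.45 (Ccng1) and -0.65 to 0.82 (Sesn1) in pancreas, -0.54 to 1.27 (Gdf15) in set 1 liver, -0.23 to 0.33 (Trp53inp1) in pancreas minus liver, and -0.045 to 0.31 (Trp53), -0.15 to 0.22 (Cdkn1a), -1.66 to 0.15 (Gdf15) and -0.47 to 0.26 (Sesn1) in liver minus lung. Without A3B pancreases 44 and 137, both with conflicting labels, 7 members rose and 0 fell, and without control pancreas 45 or 168, which also conflict, the Mdm2 call was lost. With 2 controls per organ in set 2 and 3 in set 1, the spread of controls is poorly known.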
